A study of Mus musculus with 36 samples.

Results

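The genes described here are 9 direct or early targets of bone morphogenetic protein (BMP) signalling, *Id1*, *Id2*, *Id3*, *Id4*, *Smad6*, *Smad7*, *Bambi*, *Msx1* and *Msx2*. They were taken by gene symbol, with no threshold on a measured value. All 9 were found among the 54281 genes of the files, and all 9 were among the 21601 genes that passed the filter on low counts. BMP ligands bind receptor kinases that phosphorylate SMAD1, SMAD5 and SMAD9, which enter the nucleus with SMAD4 and switch on target genes. The *Id* genes encode helix-loop-helix proteins without a DNA-binding domain, which tie up the bHLH partners that neural differentiation factors need. *Smad6* and *Smad7* encode inhibitory SMADs, *Bambi* a decoy receptor without a kinase domain, and *Msx1* and *Msx2* homeobox factors of the neural border, dorsal neural tube and mesoderm. In the early embryo BMP signalling opposes the neural fate and acts with WNT and Nodal in the primitive streak.

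RNA was measured in bulk in 36 libraries of mouse embryonic stem cells (ESCs) and of the cells they gave in differentiation to anterior neural progenitors, with N2B27 medium, bFGF until day 3 and harvest up to day 5. By the study's methods, the ESCs had been grown on feeder fibroblasts in medium with serum and leukaemia inhibitory factor (LIF). WT (lines WT7 and WT34) and *Tet1* KO (KO1 and KO15) ESCs are male B6129S6F1 lines of the *Tet1* tm1Koh strain, and gave 2 libraries per genotype on days 0, 1, 2 and 4, 4 on day 3 and 3 on day 5. MUT lines (CM59 and CM69) carry a mutation in the catalytic domain of TET1 and are edited clones of WT7, with 2 libraries on each of days 3 and 5, beside 1 library per day of WT70, a line labelled only WT. Days 0, 3 and 5 of both genotypes made up experiment 1. Days 1 to 5 made up experiment 2, where WT34 and KO15 have no day 5 library here. MUT and WT70 cells made up experiment 3.

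RefSeq promoter windows (GRCm38.p6, 250 bases before the start) were matched for 6 of the 9 genes, *Id2*, *Id3*, *Id4*, *Smad6*, *Msx1* and *Msx2*. The palindrome GGCGCC, a GC-rich sequence that SMAD1 and SMAD5 can bind, occurred once each in the windows of *Id2* and *Id4* and in none of the other 4. Of 32851 promoter windows of the same length, 9.6% held it. The shorter SMAD motif GTCTG, on either strand, occurred at 2 places in the window of *Id3* and in none of the other 5, and 42.2% of all windows held it. By the annotation used for gene positions, the whole windows of *Id3* and *Msx2* lie within exons of these genes. The stretches outside annotated exons are printed for the 2 windows with GGCGCC, in capitals, and, for comparison, for *Smad6* and *Msx1*, the 2 members without it whose whole window lies outside exons. The *Id2* stretch, chr12:25096254-25096342 on the - strand, lies within the span of the gene between annotated exons, and its palindrome begins 231 bases before the RefSeq start. In *Id4*, chr13:48260866-48261115 on the + strand, the palindrome begins 148 bases before the start. The other windows are chr9:64022060-64022309 (*Smad6*, - strand) and chr5:37824586-37824835 (*Msx1*, - strand), and a match of letters is a description of the window, not a binding site.
Id2: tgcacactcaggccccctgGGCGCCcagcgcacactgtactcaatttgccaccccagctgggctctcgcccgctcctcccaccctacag
Id4: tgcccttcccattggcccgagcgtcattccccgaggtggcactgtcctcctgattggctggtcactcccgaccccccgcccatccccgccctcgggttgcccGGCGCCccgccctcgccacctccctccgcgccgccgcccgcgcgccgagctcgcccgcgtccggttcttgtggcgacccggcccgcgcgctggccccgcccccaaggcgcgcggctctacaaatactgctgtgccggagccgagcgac
Smad6: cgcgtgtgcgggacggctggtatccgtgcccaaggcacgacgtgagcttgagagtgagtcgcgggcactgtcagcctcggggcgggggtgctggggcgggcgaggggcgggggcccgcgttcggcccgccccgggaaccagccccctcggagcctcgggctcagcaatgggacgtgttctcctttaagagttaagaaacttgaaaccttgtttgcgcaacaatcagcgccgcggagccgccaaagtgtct
Msx1: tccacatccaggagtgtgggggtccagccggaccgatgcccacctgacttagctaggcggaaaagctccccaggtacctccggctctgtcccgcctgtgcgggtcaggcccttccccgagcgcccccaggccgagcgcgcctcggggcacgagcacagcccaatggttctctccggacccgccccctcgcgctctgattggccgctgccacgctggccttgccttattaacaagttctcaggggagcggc

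Total counts were 10.1 M to 26.3 M per library. Levels are in CPM, which scales counts to the size of each library (here with TMM factors), or in TPM, which also corrects for transcript length. *Tet1*, checked against the labels, was 28.9 to 83.1 CPM in KO libraries and 108 to 1432 CPM in the libraries of WT7 and WT34. MUT libraries held it at 158 to 320 CPM. Libraries of experiments 1 and 2 stood apart for several of the 9 genes on the same day, and the WT7 library of day 1 took 5.68% of its counts from mitochondrial genes, against 1.21% to 3.12% in the other 35. Log2 fold changes are therefore given from a model with an experiment term, with their standard error (SE). For the 9 genes, values within an experiment stand beside several of them. The threshold for a rise, a fall or a difference was an adjusted p below 0.05 (edgeR quasi-likelihood test) together with a change of more than 1 in either direction on the log2 scale. Second differentiations of a line count as libraries, so p-values measure the spread between libraries and not between independent lines.

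Per transcript length (TPM), *Id3* was the most abundant of the 9 genes in every group. In WT cells its mean was 33.4 TPM on day 0 and 172 TPM on day 5. *Id2* and *Id1* followed on WT day 5 at 43.2 TPM and 38.1 TPM, whose library ranges (21.3 to 56.1 TPM and 19.8 to 48.1 TPM) overlapped. The other 6 genes were at 1.08 to 3.36 TPM on that day. In ESCs, *Smad7* (12.2 TPM), *Id2* (11.3 TPM) and *Id1* (8.12 TPM) followed *Id3*. *Msx1* (0.131 TPM) and *Msx2* (0.203 TPM) were the least abundant of the 9 there. *Id4* stayed at or below 1.95 TPM in all 36 libraries. The 9 genes lie on 7 chromosomes (mm10), at chr2:152736251-152737410 (*Id1*, + strand), chr12:25093799-25097140 (*Id2*, -), chr4:136143497-136145755 (*Id3*, +), chr13:48261228-48266026 (*Id4*, +), chr9:63953076-64022059 (*Smad6*, -), chr18:75367529-75395935 (*Smad7*, +), chr18:3507923-3516404 (*Bambi*, +), chr5:37820485-37824583 (*Msx1*, -) and chr13:53466884-53473074 (*Msx2*, -). *Id4* is overlapped on the opposite strand by A330033J07Rik (1396 bases) and Gm49291 (1364 bases).

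**Figure D1:**
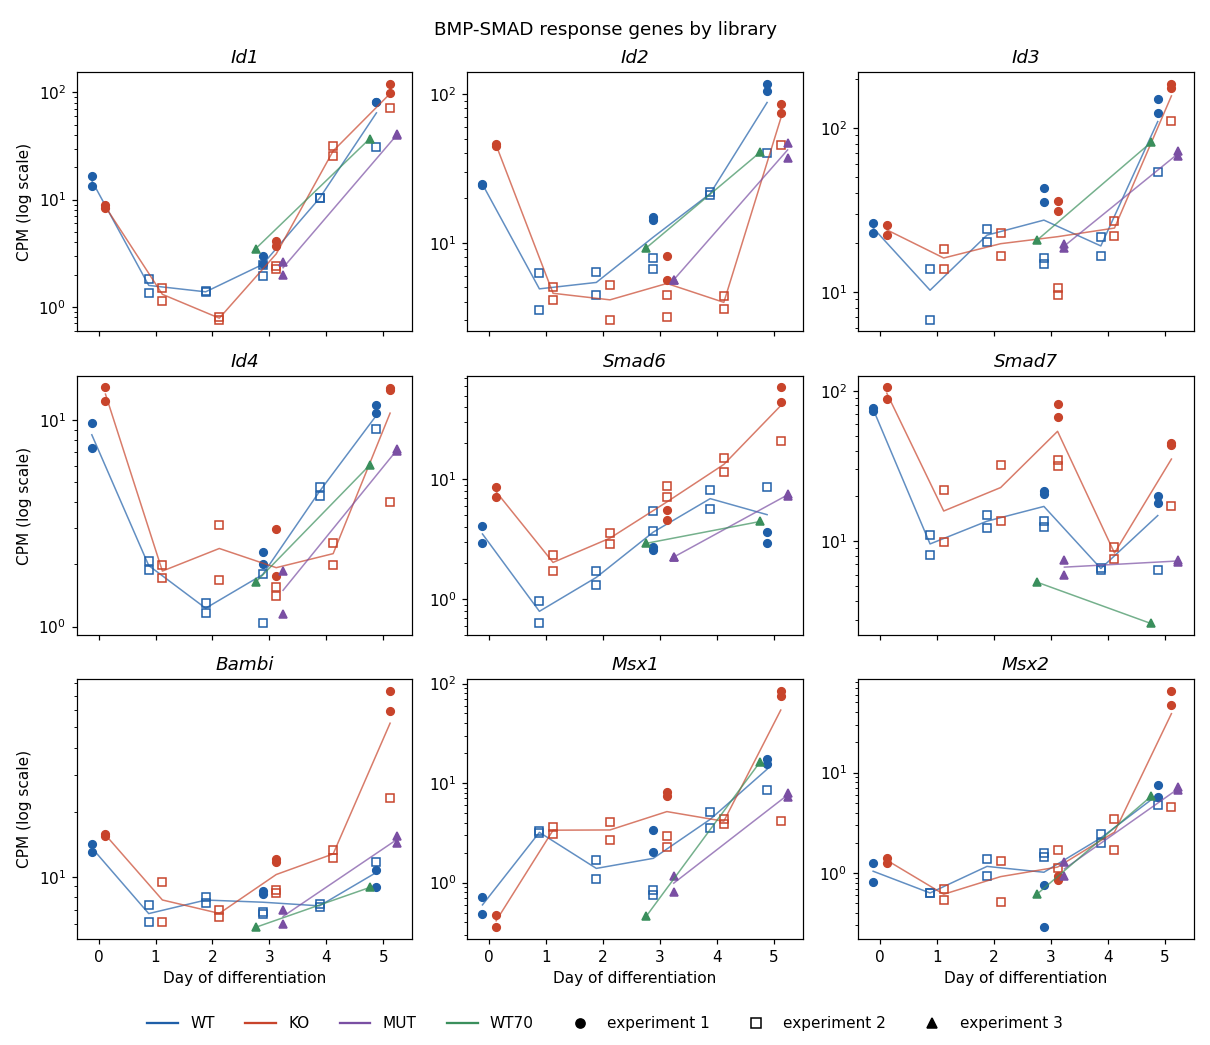
Level of each of the 9 genes in each library, in CPM on a log axis, against the day of differentiation. Points are single libraries, coloured by genotype and shaped by experiment (open squares, experiment 2), and lines join group means. *Id1* fell between day 0 and day 1 and rose to its highest levels on day 5 in both WT and KO cells.

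From day 0 to day 1 most of the *Id* genes and the inhibitory SMAD genes fell. Between these days the cells left both the ESC state and the medium with serum and LIF, and the parts of state and medium cannot be told apart. *Id1*, the *Id* gene most often used as a BMP readout, was 13.3 and 16.7 CPM in the WT libraries of day 0 and 1.83 and 1.33 CPM on day 1. In KO cells it was 8.83 and 8.33 CPM on day 0 and 1.13 and 1.49 CPM on day 1. The days did not overlap in either genotype. The log2 fold change was -2.46 (SE 0.28, adjusted p = 3.28e-07) in WT and -1.89 (SE 0.30, adjusted p = 1.78e-05) in KO cells. *Smad7*, whose product blocks receptor-activated SMADs, was 77.3 and 73.7 CPM on WT day 0 and 8.13 and 11.04 CPM on day 1 (a log2 fold change of -1.85, SE 0.34, adjusted p = 0.000177). *Id2*, *Id4* and *Smad6* also fell in both genotypes, by 1.31, 1.28 and 2.61 on the log2 scale in WT cells and by 2.30, 2.04 and 2.38 in KO cells. In all, 1 of the 9 genes rose and 5 fell in each genotype, beside 12.6% of all tested genes called in WT and 14.8% in KO cells, in either direction.

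The gene that rose was *Msx1*, from 0.712 and 0.483 CPM on WT day 0 to 3.27 and 3.13 CPM on day 1 and from 0.356 and 0.471 to 3.64 and 3.09 CPM in KO cells. Its days did not overlap, and the fitted log2 fold change was 4.38 (SE 0.72) in WT and 4.92 (SE 0.74) in KO cells. Day 0 was measured only in experiment 1 and day 1 only in experiment 2, so these folds rest on the experiment term, which days 3 and 5 supply. The term takes the gap between the experiments as the same on every day and in both genotypes, which *Msx1* did not bear out. Its KO values in experiments 1 and 2 were 8.15 and 7.33 against 2.29 and 2.91 CPM on day 3. On day 5 they were 83.5 and 74.7 against 4.12 CPM, so the fitted sizes for *Msx1* are uncertain. Without the term the rise of *Msx1* was 2.46 (adjusted p = 0.0928) in WT and 3.00 (adjusted p = 0.0440) in KO cells. For *Id3* the levels and the fit pointed apart. It was 26.4 and 22.8 CPM on WT day 0 and 6.77 and 13.7 CPM on day 1, where the lowest value is that of the library with the high mitochondrial share, yet its fitted log2 fold change was 0.05 (adjusted p = 0.943), and -1.26 (adjusted p = 0.109) without the term. The WT fall of *Id2* was -0.95, under the fold threshold, without WT day 1 replicate 1, and that of *Id4* lost its call without WT day 0 replicate 1 (adjusted p = 0.0729) or WT day 1 replicate 2 (adjusted p = 0.0559).

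Day 3 could be compared with day 0 within experiment 1, a comparison added after the data were seen. *Id1*, *Id4* and *Smad7* fell in WT cells, by 2.19 (SE 0.19), 1.90 (SE 0.29) and 1.62 (SE 0.25) on the log2 scale, and *Msx1* rose by 2.30 (SE 0.65), which makes 4 of 9 beside 22.5% of all genes. In KO cells *Id1* (-1.11, SE 0.20), *Id2* (-2.64, SE 0.20) and *Id4* (-2.43, SE 0.28) fell and *Msx1* (4.37, SE 0.64) rose, again 4 of 9, beside 21.2% of all genes. Within experiment 1 alone the 4 calls of each genotype stood, with *Msx1* at 2.18 in WT and 4.17 in KO cells. The WT rise of *Msx1* lost its call without WT day 0 replicate 2 (1.96, adjusted p = 0.0969). *Smad7* on KO day 3 was 82.1, 66.8, 34.8 and 31.4 CPM, the first pair of values from experiment 1, beside 105 and 87.7 CPM on day 0. Its log2 fold change in KO cells was -0.39 (SE 0.24, adjusted p = 0.209).

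Between day 1 and day 3, 2 of the genes changed in each genotype. In WT cells *Smad6* rose from 0.956 and 0.627 CPM to 2.59 to 5.48 CPM (log2 fold change 2.37, SE 0.51, adjusted p = 0.000402), and *Msx1* fell by 2.09 (SE 0.50), so that 2 of 9 passed beside 23.9% of all genes. In KO cells *Smad6* (1.85, SE 0.42) and *Smad7* (1.11, SE 0.27) rose, 2 of 9 beside 21.3%. The KO change of *Smad7* was 0.62 (adjusted p = 0.116) without KO day 1 replicate 2, the lower of the day 1 pair (21.8 and 9.93 CPM). Without WT day 1 replicate 2, *Id2* (1.03, adjusted p = 0.00830) and *Id3* (1.20, adjusted p = 0.00186) also passed in WT cells. The WT change of *Smad6* was 0.45 (adjusted p = 0.465) with limma on log2(TPM + 1), and that of *Msx1* was -0.91 (adjusted p = 0.350) without the experiment term but -2.01 within experiment 2.

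After bFGF was withdrawn on day 3, all 4 *Id* genes and both *Msx* genes rose in WT cells by day 5. *Id1* was 2.98, 2.52, 1.95 and 2.48 CPM on day 3, 10.3 and 10.3 CPM on day 4 and 80.9, 81.7 and 31.0 CPM on day 5. Every day 5 library lay above every day 3 library, and the library from experiment 2 (31.0 CPM) was the lowest of day 5. The log2 fold change from day 3 to day 5 was 4.45 (SE 0.16, adjusted p = 2.55e-16), or 21.8-fold. *Id2* was 14.9, 14.1, 6.60 and 7.94 CPM on day 3 and 106, 118 and 40.1 CPM on day 5 (2.79, SE 0.17). *Id3* was 43.3, 35.5, 16.1 and 14.8 CPM on day 3 and 150, 124 and 54.0 CPM on day 5 (1.81, SE 0.18). *Id4* was 2.29, 2.01, 1.80 and 1.03 CPM on day 3 and 10.9, 11.8 and 9.04 CPM on day 5 (2.50, SE 0.25). For each of the 4 *Id* genes the lowest day 5 library was above the highest day 3 library, and the last value of day 5, from experiment 2, was the lowest of its group. The share of all genes with libraries separated in this way is not given here, so the separation describes these genes only. The same holds for the other genes said not to overlap.

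The *Msx* genes rose over the same days. *Msx1* was 3.40, 2.01, 0.750 and 0.850 CPM on WT day 3 and 17.3, 15.5 and 8.57 CPM on day 5 (a log2 fold change of 2.88, SE 0.38, adjusted p = 1.02e-06). *Msx2* was 0.763, 0.288, 1.58 and 1.44 CPM on day 3 and 5.75, 7.49 and 4.79 CPM on day 5 (2.39, SE 0.57, adjusted p = 0.00127). The inhibitors did not pass. *Bambi* (0.42, 95% interval -0.01 to 0.85), *Smad6* (0.54, -0.14 to 1.23) and *Smad7* (-0.48, -0.97 to 0.02) had adjusted p of 0.107, 0.194 and 0.108. Thus 6 of 9 genes rose and 0 fell, beside 15.5% of all genes called, and the median log2 fold change was 2.39 over the 9 genes and 0.01 over all. In bulk RNA, a change in the number of cells of a type and a change in RNA per cell cannot be told apart.

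The *Id* genes did not rise on the same day. From day 3 to day 4 in WT cells *Id1* (2.43, SE 0.20), *Id2* (1.56, SE 0.20), *Id4* (1.81, SE 0.30) and *Msx1* (2.52, SE 0.48) rose on the log2 scale, 4 of 9 beside 5.37% of all genes. *Id3* was 21.7 and 16.5 CPM on day 4, within the range of day 3, with a log2 fold change of 0.28 (SE 0.22, adjusted p = 0.451). From day 4 to day 5 *Id1* (2.02, SE 0.20), *Id2* (1.23, SE 0.22) and *Id3* (1.53, SE 0.24) rose, 3 of 9 beside 2.67%. For *Id4* the last step was 0.69 (SE 0.31, adjusted p = 0.188). Without the experiment term the day 4 rises of *Id2* (0.98, adjusted p = 0.0576) and *Msx1* (1.34, adjusted p = 0.221) missed the threshold, and within experiment 2 they were 1.56 and 2.42. The last step of *Id2* was 0.93 (adjusted p = 0.105) within experiment 2.

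In KO cells all 4 *Id* genes and both *Msx* genes rose too, and with them *Smad6* and *Bambi*. From day 3 to day 5, 8 of 9 genes rose and 0 fell, beside 22.3% of all genes. *Id1* was 3.71, 4.12, 2.23 and 2.41 CPM on day 3, 31.7 and 25.3 CPM on day 4 and 121, 99.6 and 72.4 CPM on day 5. The log2 fold change from day 3 to day 5 was 4.85 (SE 0.16, adjusted p = 7.27e-18). *Smad6* was 5.50, 4.58, 8.75 and 7.09 CPM on day 3 and 58.4, 44.2 and 21.1 CPM on day 5 (2.86, SE 0.31, adjusted p = 1.79e-08). *Bambi* was 12.1, 11.7, 8.69 and 8.40 CPM on day 3 and 73.5, 59.7 and 23.2 CPM on day 5 (2.22, SE 0.19, adjusted p = 5.40e-10). Neither gene overlapped between the days. In both, the KO1 library of experiment 2 gave the lowest day 5 value. *Smad7* had a log2 fold change of -0.80 (SE 0.22), short of the fold threshold.

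The *Msx* genes of KO cells differed between the experiments on day 5. *Msx2* was 64.6 and 46.9 CPM in experiment 1 and 4.50 CPM in experiment 2, after 0.851 to 1.69 CPM on day 3 (4.86, SE 0.58). *Msx1* was 83.5 and 74.7 CPM in experiment 1 and 4.12 CPM in experiment 2, after 8.15, 7.33, 2.29 and 2.91 CPM on day 3 (2.79, SE 0.35). The single KO1 library of experiment 2 lay below both day 3 libraries of experiment 1 for *Msx1*. Within experiment 1 the change of *Msx1* was 3.38 and within experiment 2 it was 0.67 (adjusted p = 0.153), so its call rests on experiment 1. For *Msx2* the values were 5.98 and 1.68, both past the threshold.

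The steps in KO cells set *Id1* and *Id2* apart. From day 3 to day 4 *Id1* (3.63, SE 0.18) and *Id3* (1.04, SE 0.22) rose and *Smad7* fell, from 31.4 to 82.1 CPM over the day 3 libraries to 9.10 and 7.596 CPM (-2.004, SE 0.29, adjusted p = 8.30e-06), 3 of 9 beside 11.2% of all genes. *Id2* was 8.08, 5.57, 3.17 and 4.43 CPM on KO day 3, 3.56 and 4.37 CPM on day 4 and 85.2, 75.1 and 45.5 CPM on day 5. Its log2 fold change was 0.14 (SE 0.25) to day 4 and 3.39 (SE 0.25, adjusted p = 8.84e-10) from day 4 to day 5. From day 4 to day 5 all 9 genes rose, beside 7.22% of all genes. Within experiment 2, which alone holds day 4 and has the single KO1 library on day 5, *Id1* (1.34), *Id2* (3.52) and *Id3* (2.16) changed most. There *Msx1* (-0.00), *Msx2* (0.81), *Smad6* (0.66), *Bambi* (0.86) and *Id4* (0.84) were under the fold threshold, and *Smad7* (1.03) lay at it. *Msx1* also missed the threshold without KO day 4 replicate 1 (adjusted p = 0.0544), and *Smad7* without KO day 4 replicate 2 (adjusted p = 0.0749). The day 4 rise of *Id3* was 0.19 without the experiment term and 1.29 within experiment 2, and it was under the fold threshold without KO day 3 replicate 3 (0.92), KO day 3 replicate 4 (0.96) or KO day 4 replicate 1 (0.88).

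KO and WT cells were compared on each day. On days 0, 1 and 2 edgeR called 0 of the 9 genes, beside 0.866%, 0.634% and 0.616% of all genes, and DESeq2 called 0 on each of these days as well. At an unadjusted p under 0.05 the counts were 4, 3 and 5. The share of all genes at this looser cut is not given here, and the shares above do not apply to it. *Id1* on day 0 was lower in the KO libraries (8.83 and 8.33 CPM) than in the WT libraries (13.3 and 16.7 CPM), with a log2 fold change of -0.82 (SE 0.20, adjusted p = 0.0183), and *Id2* higher (45.9 and 44.8 against 24.8 and 24.6 CPM, 0.88, SE 0.21, adjusted p = 0.0170). Both differences were under the fold threshold. *Smad6* on day 0 was 7.12 and 8.64 CPM in KO and 2.95 and 4.05 CPM in WT cells (1.15, SE 0.43, adjusted p = 0.155), and it passed within experiment 1 alone (1.12, adjusted p = 0.00761). Leaving out 1 library brought *Id3* on day 1 past the threshold (1.24, without WT replicate 2) and *Smad7* on day 2 (1.23, without KO replicate 2).

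On day 3, 2 of the 9 genes were higher and 1 lower in KO cells, beside 3.96% of all genes. *Smad7* was 82.1, 66.8, 34.8 and 31.4 CPM in KO and 21.5, 20.6, 13.6 and 12.5 CPM in WT libraries. Every KO library was above every WT library, and within each experiment KO was above WT. The log2 fold change was 1.58 (SE 0.20, adjusted p = 3.42e-06), or 3.00-fold, with 1.83 in experiment 1 and 1.37 in experiment 2. *Msx1* was 8.15, 7.33, 2.29 and 2.91 CPM in KO and 3.40, 2.01, 0.750 and 0.850 CPM in WT libraries (1.60, SE 0.38, adjusted p = 0.00362). These ranges overlapped over both experiments and not within either, where the changes were 1.51 and 1.71. *Id2* was lower, at 8.08, 5.57, 3.17 and 4.43 CPM against 14.9, 14.1, 6.60 and 7.94 CPM (-1.01, SE 0.17, adjusted p = 0.000131). It lies at the fold threshold, and it dropped under it without any 1 of 4 libraries (KO replicate 2 or 3, WT replicate 1 or 4; lowest size -0.87). *Msx1* was 1.58 (adjusted p = 0.0946) without the experiment term, and *Smad6* (0.85, adjusted p = 0.0514) passed without WT replicate 3 (1.05, adjusted p = 0.0313).

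On day 4, *Id1* and *Id2* differed in opposite directions. *Id1* was 31.7 and 25.3 CPM in KO and 10.3 and 10.3 CPM in WT libraries (log2 fold change 1.47, SE 0.19, adjusted p = 3.48e-06). *Id2* was 3.56 and 4.37 CPM in KO and 20.9 and 21.9 CPM in WT libraries (-2.43, SE 0.25, adjusted p = 1.26e-07), 5.40-fold lower. The libraries of neither gene overlapped. *Id4* was 1.98 and 2.53 CPM in KO and 4.75 and 4.30 CPM in WT libraries (-1.003, SE 0.34, adjusted p = 0.0440). It sits on the threshold, and leaving out any of the 4 libraries ended the call (adjusted p 0.102 to 0.265). With these, 1 gene was higher and 2 were lower, beside 7.68% of all genes.

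On day 5, 5 of 9 genes were higher and 0 lower in KO cells, beside 11.7% of all genes. *Smad6* was 58.4, 44.2 and 21.1 CPM in KO and 2.95, 3.63 and 8.63 CPM in WT libraries (log2 fold change 3.16, SE 0.34, adjusted p = 7.48e-08), or 8.96-fold higher. *Bambi* was 73.5, 59.7 and 23.2 CPM against 8.93, 10.7 and 11.7 CPM (2.22, SE 0.21, adjusted p = 1.17e-08). For both genes the genotypes did not overlap, and experiments 1 and 2 were not tested against each other. The values in experiment 2 were 1.29 (adjusted p = 0.0313) for *Smad6* and 0.98 (adjusted p = 0.0201) for *Bambi*, and those in experiment 1 were 3.97 and 2.77. *Smad7* was 44.7, 43.7 and 17.1 CPM against 17.9, 20.1 and 6.47 CPM (1.26, SE 0.24, adjusted p = 0.000215), with 1.23 in experiment 1 and 1.40 (adjusted p = 0.130) in experiment 2. Over both experiments the *Smad7* ranges overlapped, and within each they did not.

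The *Msx* differences of day 5 came from experiment 1. *Msx2* was 64.6 and 46.9 CPM in KO and 5.75 and 7.49 CPM in WT libraries there, and 4.50 CPM in KO1 and 4.79 CPM in WT7 of experiment 2. The log2 fold change was 2.61 (SE 0.54, adjusted p = 0.000451) over both, 3.09 in experiment 1 and -0.09 (adjusted p = 0.973) in experiment 2. *Msx1* was 83.5 and 74.7 CPM against 17.3 and 15.5 CPM in experiment 1, and 4.12 CPM against 8.57 CPM in experiment 2. Its log2 fold change was 1.51 (SE 0.36, adjusted p = 0.00195) over both, 2.28 in experiment 1 and -1.05 (adjusted p = 0.110) in experiment 2, the opposite direction. Experiment 2 held 1 library of each genotype on day 5, so its values assume that these libraries vary like those of the other days.

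Among the *Id* genes of day 5 none passed the fold threshold. *Id1* had a log2 fold change of 0.67 (SE 0.14, adjusted p = 0.000552) and *Id3* of 0.62 (SE 0.18, adjusted p = 0.0103). In experiment 2 alone *Id1* was 72.4 CPM in KO1 and 31.0 CPM in WT7, and passed (1.23, adjusted p = 0.00200). *Id2* (-0.28, 95% interval -0.62 to 0.07) and *Id4* (-0.09, -0.60 to 0.43) had adjusted p of 0.228 and 0.855.

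**Figure D2:**
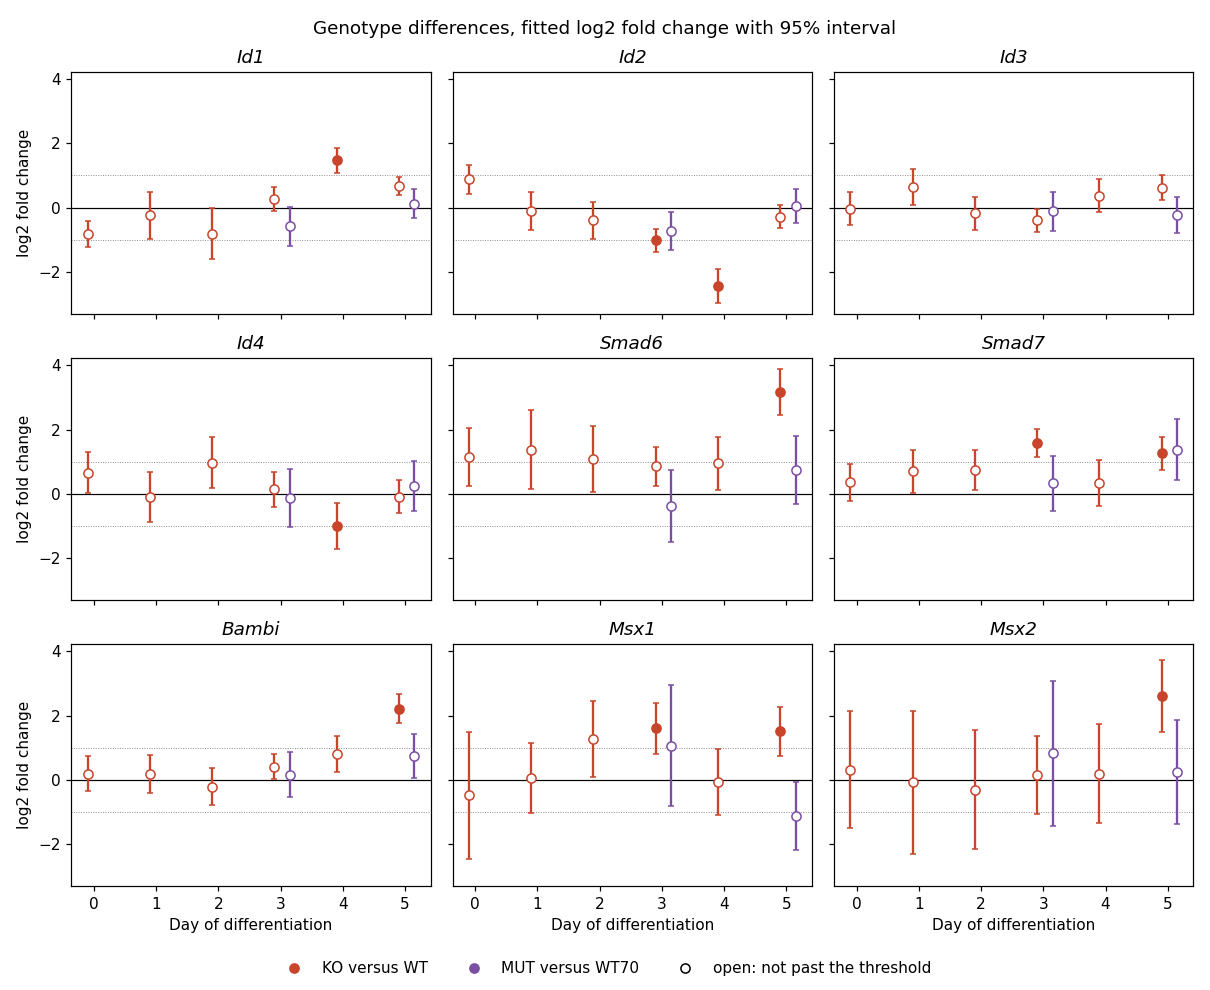
Fitted log2 fold change of each gene between KO and WT cells on days 0 to 5 and between MUT and WT70 cells on days 3 and 5, with 95% intervals, and filled points for values past the threshold. *Id2* reaches -2.43 on day 4, and *Smad6*, *Bambi* and *Msx2* reach 3.16, 2.22 and 2.61 on day 5, while no MUT point is filled.

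**Figure D3:**
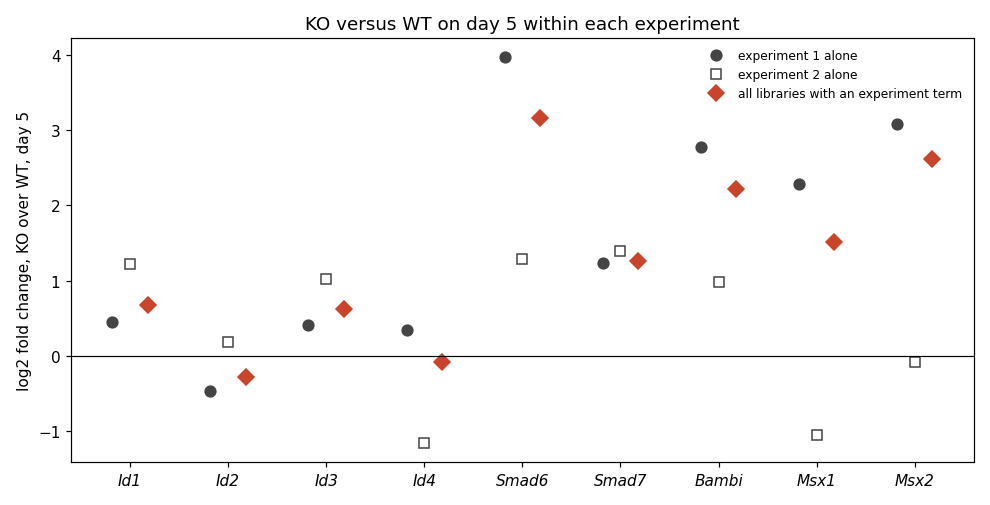
Log2 fold change between KO and WT cells on day 5 for each gene, in experiment 1 alone, in experiment 2 alone and over all libraries with an experiment term. *Msx1* lies at 2.28 in experiment 1 and -1.05 in experiment 2, and *Smad7* at 1.23 and 1.40.

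The change from day 3 to day 5 was compared between the genotypes by the interaction term. It was larger in KO cells for *Bambi* (1.80, SE 0.28, adjusted p = 3.33e-05), *Smad6* (2.31, SE 0.44, adjusted p = 0.000358), *Msx2* (2.47, SE 0.78, adjusted p = 0.0233) and *Id3* (1.02, SE 0.25, adjusted p = 0.00381), 4 of 9 and 0 in the other direction, beside 9.43% of all genes. In experiment 1 these differences were 2.27, 3.04, 2.35 and 0.65, the last under the fold threshold. Within experiment 2 none of the first 3 passed, at 0.62, 0.46 and -0.03, and *Id3* (1.60, adjusted p = 0.0366) and *Id1* (1.16, adjusted p = 0.0244) were past it. *Msx2* lost its call without any 1 of 6 libraries (KO day 3 replicate 1 or 2, KO day 5 replicate 1, WT day 3 replicate 3 or 4, WT day 5 replicate 1), and *Id3* was under the fold threshold without any 1 of 7 (KO day 3 replicate 3 or 4, KO day 5 replicate 3, WT day 3 replicate 1 or 3, WT day 5 replicate 2 or 3). *Msx1* was -0.09 (SE 0.49) over both experiments, 0.77 in experiment 1 and -2.76 (adjusted p = 0.00472) in experiment 2.

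Cells with the catalytic mutation were compared with WT70 in experiment 3. From day 3 to day 5 8 of 9 genes rose in the MUT lines, beside 17.4% of all genes, and 6 of 9 in WT70, beside 12.2%, with 0 lower in both. WT70 had 1 library on each day, so its changes have no replicate check of their own and their SE takes the spread from the other groups of the model. *Id1* was 2.00 and 2.63 CPM on MUT day 3 and 40.8 and 39.8 CPM on day 5 (a log2 fold change of 4.11, SE 0.21), and 3.49 and 36.9 CPM in the WT70 libraries (3.40, SE 0.29). *Bambi* was 7.02 and 6.02 CPM on MUT day 3 and 14.4 and 15.5 CPM on day 5 (1.20, SE 0.26), and 5.80 and 8.90 CPM in WT70 (0.62, SE 0.38). *Smad6* was 2.24 and 2.25 CPM on MUT day 3 and 7.57 and 7.26 CPM on day 5 (1.72, SE 0.42), and 2.93 and 4.45 CPM in WT70 (0.60, SE 0.60). The difference between the MUT and the WT70 changes was not tested. *Smad7* passed in neither.

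Between MUT and WT70 edgeR called 0 of 9 genes on day 3, beside 0.148% of all genes, and 0 of 9 on day 5, beside 1.87%. At an unadjusted p under 0.05 there were 1 and 3 genes, without a share of all genes at that cut. DESeq2 called 0 on day 3 and 1, *Smad7*, on day 5. On day 5 *Smad7* was 7.47 and 7.31 CPM in MUT and 2.84 CPM in WT70 (log2 fold change 1.38, 95% interval 0.42 to 2.34, adjusted p = 0.107). *Msx1* was 7.25 and 7.94 CPM in MUT and 16.4 CPM in WT70 (-1.11, -2.16 to -0.06, adjusted p = 0.293). Fitted on the compared libraries alone, both *Smad7* (adjusted p = 0.00454) and *Msx1* (adjusted p = 0.00169) passed on day 5. *Smad6* (0.74, -0.32 to 1.79) and *Bambi* (0.75, 0.07 to 1.42) were not past the threshold. With 1 WT70 library per day the intervals are wide, and they do not show that MUT and WT70 are alike.

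Set against WT7 and WT34 of the other experiments, MUT cells gave other values, and line and experiment cannot be told apart there. *Smad7* was then lower in MUT, by -1.87 on day 3 and -1.25 on day 5, and *Id2* by -1.39 and -1.27. The MUT effect (against WT70) was also compared with the KO effect (against WT7 and WT34). On day 3 edgeR called 0 of 9 differences, beside 0.394% of all genes, and DESeq2 called 0. At an unadjusted p under 0.05 there were 2, again without a share of all genes at that cut. On day 5 the MUT effect was the lower for *Smad6* (-2.43, SE 0.59, adjusted p = 0.0121), *Bambi* (-1.47, SE 0.37, adjusted p = 0.0170) and *Msx1* (-2.62, SE 0.61, adjusted p = 0.00933), 3 of 9 and 0 in the other direction, beside 3.62%. Fitted on the compared libraries alone, 0 of the 3 passed (lowest adjusted p = 0.127), and with limma on log2(TPM + 1) *Smad6* (adjusted p = 0.212) and *Msx1* (adjusted p = 0.145) did not. *Msx1* also lost the call without the experiment term (adjusted p = 0.106). The KO effects behind these differences were smaller in experiment 2, at 1.29 for *Smad6*, 0.98 for *Bambi* and -1.05 for *Msx1*, beside MUT effects of 0.74, 0.75 and -1.11 that rest on 1 WT70 library. *Bambi* lost this call without WT day 5 replicate 1 (adjusted p = 0.0504) or MUT day 5 replicate 1 (adjusted p = 0.0683). *Msx2* (-2.36, adjusted p = 0.150) passed without KO day 5 replicate 3 (-3.10, adjusted p = 0.000465).

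The other genes of the pathway were read from lists written from general knowledge. Their WT and KO values are given over experiments 1 and 2 together, and values within each experiment are not given. Of 11 BMP ligand genes tested, 7 rose and 2 fell in WT cells from day 3 to day 5, beside 15.5% of all genes called in either direction. *Bmp7* rose from 13.2 ± 1.19 CPM (SD, n = 4) to 67.6 ± 6.04 CPM (n = 3), and *Bmp4* from 1.02 ± 0.335 to 15.3 ± 5.63 CPM. *Gdf3*, a ligand gene of pluripotent cells, fell from 5.59 ± 1.29 to 0.345 ± 0.104 CPM. On day 5, 2 of 11 ligand genes were higher and 1 lower in KO than in WT cells, beside 11.7% of all genes. *Bmp2* was 64.9 ± 22.7 CPM in KO and 4.38 ± 2.22 CPM in WT cells (log2 fold change 3.86, SE 0.36), and *Bmp5* was 61.3 ± 10.3 and 3.28 ± 3.71 CPM (4.49, SE 0.42). *Gdf7*, a roof plate ligand, had no count in the 3 KO libraries and 0.850 to 4.11 CPM in the WT libraries, which makes it at least 31.4-fold lower, with 3 counts over the group as the limit. *Bmp5* was also the 1 of 11 ligand genes that passed between MUT and WT70 on day 5, beside 1.87% of all genes, at 16.2 ± 0.711 CPM (n = 2) against 2.61 CPM.

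BMP antagonists are secreted proteins that bind the ligands. In WT cells from day 3 to day 5, 5 of 14 rose and 0 fell, beside 15.5% of all genes, with *Grem1* (5.31, SE 0.54), *Nog* (2.13, SE 0.25) and *Cer1* (6.09, SE 0.83) at the smallest p on the log2 scale of fold change. *Cer1* varied widely between the WT libraries of day 5. On day 5, 5 of 14 were higher and 1 lower in KO cells, beside 11.7% of all genes. *Nog* was 18.1 ± 1.72 CPM in KO and 5.04 ± 2.12 CPM in WT cells, *Bmper* 23.4 ± 6.80 and 1.61 ± 0.608 CPM, and *Chrdl1*, the lower one, 1.51 ± 0.425 and 8.35 ± 3.16 CPM. Between MUT and WT70 2 of 14 were higher, beside 1.87%, *Fst* (1.97, SE 0.54, adjusted p = 0.0456) and *Nbl1* (1.44, SE 0.41, adjusted p = 0.0499).

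Receptors carry the signal to the SMAD proteins inside the cell. Of 10 receptors and co-receptors 1 rose and 2 fell in WT cells from day 3 to day 5, *Rgma* (2.33, SE 0.17), *Eng* (-1.86, SE 0.25) and *Bmpr1b* (-1.35, SE 0.23). On day 5, 1 was higher in KO cells, *Acvrl1* (1.47 ± 0.397 against 0.281 ± 0.270 CPM), and 1 lower, *Eng* (1.40 ± 0.680 against 3.66 ± 1.07 CPM). Of 12 SMAD transducers and regulators 2 rose in WT cells, *Zeb2* (2.24, SE 0.12) and *Smad9* (2.21, SE 0.49). *Smad9*, the receptor-activated SMAD gene that itself responds to BMP, was the 1 of 12 that was higher in KO cells on day 5 (5.30 ± 2.20 against 1.17 ± 0.769 CPM). Beside the 15.5% (WT change) and 11.7% (KO against WT) of all genes called, 3 of 10 and 2 of 10 receptor genes and 2 of 12 and 1 of 12 SMAD genes passed, so no change particular to these lists can be read from the counts. No gene of these 2 lists passed between MUT and WT70 on day 5 by edgeR.

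Of 10 further genes known to respond to BMP, 5 rose in WT cells from day 3 to day 5, beside 15.5% of all genes, among them *Tfap2c* (1.26, SE 0.22), *Atoh8* (2.92, SE 0.51) and *Gata3* (1.21, SE 0.31). On day 5, 6 were higher and 1 lower in KO cells, beside 11.7% of all genes. *Gata3*, a factor of non-neural ectoderm and trophoblast, was 18.6 ± 3.72 CPM in KO and 2.64 ± 0.594 CPM in WT cells, *Atoh8* 13.4 ± 3.40 and 1.77 ± 0.255 CPM, and *Hand1*, a mesoderm factor, 54.1 ± 39.1 and 1.04 ± 1.08 CPM. Over the 10 genes the median log2 fold change was 1.84, against -0.01 over all tested genes. *Hey1* was the 1 of 10 that was higher in MUT than in WT70, beside 1.87% of all genes (1.39, SE 0.35, adjusted p = 0.0250).

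The bHLH genes whose products ID proteins bind or oppose were counted next. In WT cells from day 3 to day 5, 4 of 12 rose and 2 fell, beside 15.5% of all genes, among them the Notch target *Hes5* (3.23, SE 0.36) and *Olig2* (-1.90, SE 0.29). On day 5, 5 of 12 were lower and 0 higher in KO than in WT cells, beside 11.7% of all genes. *Hes5* was 0.601 ± 0.308 CPM in KO and 7.49 ± 6.54 CPM in WT cells, and *Neurod1* 0.399 ± 0.302 and 3.93 ± 2.63 CPM. The median log2 fold change of the 12 genes was -1.86, against -0.01 over all tested genes. None of the 12 passed between MUT and WT70 on day 5 by edgeR.

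Targets of the Nodal branch, which signals through SMAD2, were counted beside the BMP genes. Of 8, 2 rose and 5 fell in WT cells from day 3 to day 5, beside 15.5% of all genes, with *Lefty1* at -4.19 (SE 0.51), *Nodal* at -2.07 (SE 0.30) and *Cer1* at 6.09 (SE 0.83). On day 5, 3 were higher and 1 lower in KO cells, beside 11.7% of all genes, with *Cer1* (99.9 ± 24.0 against 12.8 ± 19.4 CPM) and *Gsc* (6.08 ± 5.69 against 0.680 ± 0.591 CPM) among the higher ones. The SD of *Cer1* in WT cells was larger than its mean, so its WT rise rests on libraries that differ widely. On day 3, 7 of the 8 were higher in KO cells, beside 3.96% of all genes, with a median log2 fold change of 3.10, against 0.01 over all. The Nodal and BMP lists were not tested against each other.

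**Figure D4:**
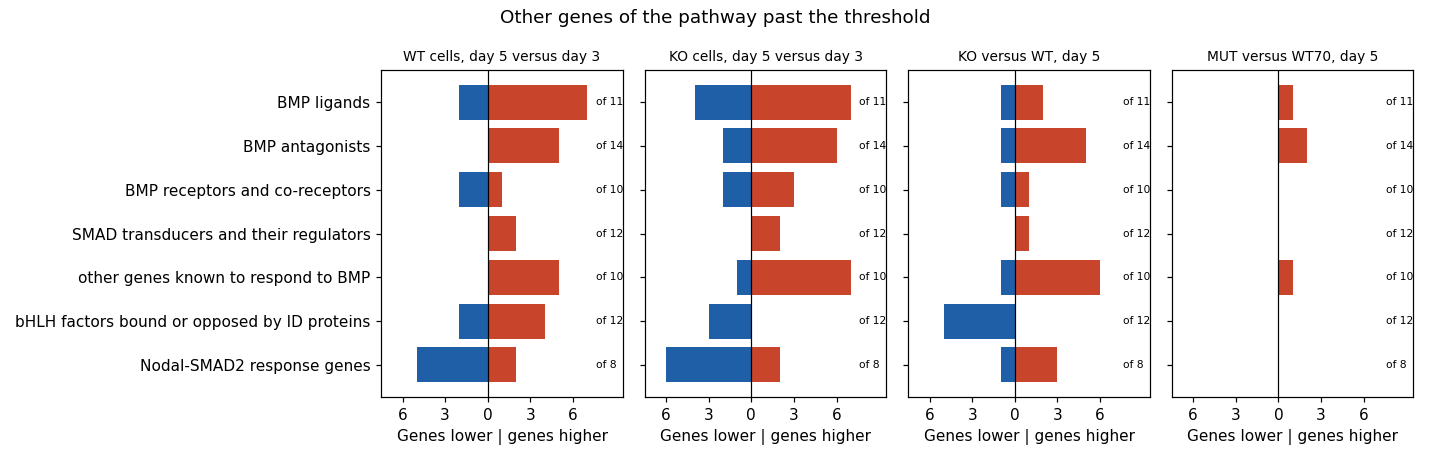
Number of genes of 7 pathway lists past the threshold, higher to the right and lower to the left, in WT and KO cells from day 3 to day 5, between KO and WT on day 5 and between MUT and WT70 on day 5, with the number tested per list. Of the bHLH genes 5 of 12 were lower in KO cells, and of the other BMP response genes 6 of 10 were higher, beside 11.7% of all genes called.

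Markers of several cell types differed with the genotype over the same days, given as sums of CPM over each list, and the counts of markers higher or lower in KO cells stand beside 11.7% of all genes called on day 5 in either direction. On day 5 the 9 mesoderm markers, *Hand1* among them, summed to 219 to 392 CPM in KO and 15.5 to 56.4 CPM in WT libraries, with 8 of 9 higher. The 7 non-neural ectoderm markers, of which *Dlx5*, *Gata3*, *Tfap2a* and *Tfap2c* are also in the list of further BMP response genes, summed to 993 to 1679 CPM in KO and 353 to 418 CPM in WT libraries, with 4 higher and 1 lower. The 6 neural progenitor markers summed to 111 to 147 CPM in KO and 439 to 470 CPM in WT libraries, with all 6 lower. Primitive streak markers (3 of 5 higher) summed to 148 to 180 CPM and 15.3 to 124 CPM, definitive endoderm markers (4 of 5) to 198 to 216 CPM and 23.1 to 82.7 CPM, and blood and endothelium markers (3 of 4 tested) to 54.6 to 92.8 CPM and 3.86 to 10.7 CPM. The highest WT value of the mesoderm, streak and endoderm sums was that of WT7 in experiment 2, and the lowest KO value of the mesoderm sum (219 CPM) was that of KO1 in experiment 2, the library with low *Msx1* and *Msx2*. Dorsal neural tube markers, in which 1 of 10 was higher and 5 were lower in KO cells, summed to 33.9 to 68.7 CPM in KO and 46.6 to 141 CPM in WT libraries, and *Gdf7* was at 0 in the KO libraries. Trophoblast markers (4 of 5 higher) summed to 33.6 to 71.7 CPM in KO and 9.04 to 20.0 CPM in WT libraries. Of these, *Eomes* is also in the primitive streak list, and *Gata3* in those of non-neural ectoderm and further BMP response genes. The trophoblast sum therefore does not by itself name that cell type. Feeder fibroblast markers (2 higher and 2 lower of 6) summed to 38.0 to 66.7 CPM in KO and 88.1 to 99.4 CPM in WT libraries. Visceral endoderm markers (1 of 3 tested higher) were near 0, at 0.773 to 3.09 CPM over both genotypes. The part of these cell types in the differences of the 9 genes was not tested.

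The states that the cells leave were read from their markers. Naive ESC markers (6 genes) summed to 3682 to 4296 CPM on day 0 over both genotypes and 16.4 to 87.9 CPM on day 5, with 1 higher and 1 lower in KO cells on day 5. Formative or primed epiblast markers (5 genes) summed to 3182 to 3584 CPM on WT day 3, 2466 to 2988 CPM on KO day 3 and 403 to 654 CPM on day 5. Marker sums also differed between the 2 MUT libraries and the 1 WT70 library of day 5, where 1.87% of all genes were called. Mesoderm markers (3 of 9 higher) summed to 105 to 106 CPM in MUT and 34.2 CPM in WT70, primitive streak markers (1 of 5) to 113 to 136 CPM and 23.3 CPM, definitive endoderm markers (1 of 5) to 115 CPM in both MUT libraries and 61.3 CPM, and non-neural ectoderm markers (2 of 7) to 447 to 520 CPM and 213 CPM. The sums of trophoblast markers (0 of 5 called) were 21.3 to 27.8 CPM and 6.23 CPM, and those of blood and endothelium markers (1 of 4 tested higher) 16.3 to 16.6 CPM and 6.51 CPM. MUT libraries were below WT70 in the sums of dorsal neural tube markers (1 of 10 lower), at 120 to 136 CPM against 182 CPM, of neural progenitor markers (1 of 6 lower), at 400 to 434 CPM against 458 CPM, and of formative or primed markers, at 335 to 400 CPM against 484 CPM. *Msx1* was below the 1 WT70 library in both MUT libraries as well, without passing the threshold in the model of all libraries. The part of these cell types in the MUT values was not tested.

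Across the 16 group means of log2 CPM, the *Id* and *Msx* genes followed each other more closely than *Smad7* did. Pearson's r was 0.93 between *Id3* and *Msx2*, 0.91 between *Id2* and *Id4*, 0.88 between *Id1* and *Msx2*, 0.84 between *Id1* and *Id3* and 0.82 between *Smad6* and *Bambi*. *Smad7* had r from -0.28 (with *Msx1*) to 0.46 (with *Bambi*). Low values also occurred between *Id* and *Msx* genes, at 0.38 for *Id2* and *Msx1* and 0.32 for *Id4* and *Msx1*. The points share libraries, days and experiments, and these values are descriptions. Among 10789 other genes with a mean of at least 5 CPM, those most like *Id1* were *Angptl2* (r = 0.97), *Pgk1* (0.97) and *Fryl* (0.96). For *Id2* they were *Praf2* (0.94), *Dcaf7* and *Gpi1* (both 0.93), for *Id3* *Timp3*, *Ndel1* (both 0.94) and *Pmp22* (0.93), and for *Id4* *Sipa1* (0.94), *Kbtbd7* and *Spg21* (both 0.93). *Smad6* was most like *Atp8a1* (0.94), *Ganab* (0.93) and *Polg* (0.92), and *Smad7* like *Epha2*, *Sde2* (both 0.89) and *Ier2* (0.88). *Bambi* was most like *Ptdss1* (0.91), *Tbx20* and *Masp1* (both 0.90), *Msx1* like *Zc3h14* (0.91), *Gfpt1* and *Lman1* (both 0.90), and *Msx2* like the imprinted growth factor gene *Igf2*, *Fam8a1* (both 0.96) and *Pmp22* (0.95).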

How the data were processed

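RNA-seq (stranded mRNA libraries, single-end) was measured in 36 libraries of mouse ESC lines over 3 experiments, with 10.1 M to 26.3 M counts per library, so low levels such as those of *Msx1* and *Msx2* in ESCs rest on few counts. Per the labels and the study's methods, the authors trimmed reads with Trim Galore 0.6.4, quantified GENCODE transcripts with Salmon 0.14.1 and summed them to genes with tximport. The authors deposited an estimated count per gene and library, which need not be whole, and TPM values scaled to transcript length and library. R 4.0.2, DESeq2 1.30.0, Seurat and mm10 are also named in the submitters' processing notes.

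The counts were rounded to integers, then tested with edgeR 4.0.16 (R 4.3.3): TMM factors, genes kept at a count minimum of 10 (total 15), 1 quasi-likelihood model with 16 group means and a term for experiment 2, 19 residual degrees of freedom, and Benjamini-Hochberg adjustment over 21601 genes. Experiment 3 shares no group with the others, so its libraries were compared among themselves. Log2 CPM used a prior count of 2. The alternatives were a log2 threshold of 1.5, no filter, RLE factors, no experiment term, the cell line as a block, DESeq2 1.42.0, limma 3.58.1 on log2(TPM + 1), each experiment alone, lines summed per day, other WT controls for MUT, the compared libraries alone, and each library left out. The test was checked on simulated data. No library was a copy of another.

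By the sample titles, same-numbered libraries were of the same cell line across days. The correlation of line deviations between days was -0.07 to 0.06 over 21601 genes. Values this low show no line deviation shared between days, so they do not bear out the pairing, which rests on the titles. The 9 genes were taken by symbol. Of each pathway list the text names the 3 genes with the smallest p past the threshold in WT day 5 against day 3, KO against WT on day 5 and MUT against WT70 on day 5, and for likeness the 3 genes with the highest r at a mean of at least 5 CPM, leaving out predicted genes. Some genes that this rule names are not reported here. The genes, lists and tests were chosen with earlier results of these data known. Day 3 against day 0 was added after the data were seen. Promoter sequences are from RefSeq (GRCm38.p6), and gene positions from the mm10 annotation used here, which is not the release the authors quantified. The stranded kit was used, but whether counting used strand is not given in the sources used here, so *Id4* and its antisense partners may share reads.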

Additional observations from a re-analysis of the deposited data

Results flagged for a closer look

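For 5 genes the change from day 3 to day 5 differed between KO and WT cells by the interaction term (edgeR quasi-likelihood test, adjusted p under 0.05). The KO change was larger by 0.74 on the log2 scale for *Id2* (adjusted p = 0.0266), which is under the fold threshold used in the report. It was larger by 1.02 for *Id3* (adjusted p = 0.00381) and by 2.31 for *Smad6* (adjusted p = 0.000358). For *Bambi* the difference was 1.80 (adjusted p = 3.33e-05) and for *Msx2* 2.47 (adjusted p = 0.0233). Within experiment 2 alone *Smad6*, *Bambi* and *Msx2* did not pass the threshold, and within experiment 1 alone *Id3* did not. *Msx2* and *Id3* also fell short of it when certain single libraries were left out.

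For 3 genes the MUT effect on day 5 differed from the KO effect, by -2.43 for *Smad6* (adjusted p = 0.0121), by -1.47 for *Bambi* (adjusted p = 0.0170) and by -2.62 for *Msx1* (adjusted p = 0.00933). Fitted on the compared libraries alone, 0 of 9 differences passed. The KO effect on *Msx1* was -1.05 in experiment 2, beside a MUT effect of -1.11, and those on *Smad6* (1.29) and *Bambi* (0.98) were also smaller there than over both experiments. No single library stood apart in the 18 groups of 4 libraries tested (the 9 genes in KO and in WT cells on day 3), where chance alone sets about 1 group in 20 apart. Groups of day 5 were not among those tested, so the check does not cover the libraries behind the day 5 effects. Each group of 4 also mixed libraries of experiments 1 and 2, which limits what the check can find.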

How the results depend on the processing

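Of 3364 values of single genes under the alternatives, 3174 kept their side of the threshold, 121 lost it and 60 gained it. The other 9 turned their direction, with a call in the main fit or in the alternative. Among the 3174, 127 values that were not called changed sign. Those called in the main fit turned in experiment 2 alone. They were *Msx1* from KO day 4 to day 5 (-0.0048) and *Msx2* in the interaction (-0.031). Between KO and WT on day 5 they were *Msx1* (-1.05) and *Msx2* (-0.090). The remaining values were called only under the alternative. One was *Id3* from WT day 0 to day 1 with lines summed per day (-1.28). Against WT7 and WT34 they were MUT *Smad7* on day 3 (-1.87) and day 5 (-1.25) and MUT *Id2* on day 5 (-1.27). Against all WT lines it was MUT *Smad7* on day 3 (-1.43). The cause was not tested. Counts of the 9 genes past the threshold moved by over 1.5 times as follows. The share of all genes called in each of these fits is not given here, and the shares given above do not apply to them. The counts therefore describe how the calls depend on the processing, and do not set the 9 genes against all genes. At a log2 threshold of 1.5 they were 1 in KO day 3 against day 1 and 1 between KO and WT on day 4. Without the filter they were 1, 1 and 2 between KO and WT on days 0, 1 and 2, 2 between MUT and WT70 on day 5 and 1 for the MUT against the KO effect on day 3. Without the experiment term WT day 4 against day 3 gave 2, and DESeq2 gave 1 between MUT and WT70 on day 5. With limma on log2(TPM + 1), WT gave 0 (day 3 against 1), 2 (day 4 against 3) and 2 (day 3 against 0), KO gave 1 (day 3 against 1) and 2 (day 3 against 0), MUT 4 (day 5 against 3), KO against WT on day 3 gave 1, and the MUT against the KO effect on day 5 gave 1; *Id4*, at most 1.95 TPM in any library, is among the genes whose folds the pseudocount shrinks. Experiment 1 alone gave 1 between KO and WT on day 0, and experiment 2 alone gave 3 for KO day 5 against 4 and 2 between KO and WT on day 5. Lines summed per day gave 7 for WT day 5 against 4, 1 each between KO and WT on days 0, 1 and 2, and 1 between MUT and WT70 on day 5. MUT against WT7 and WT34 gave 3 on each day, and against all WT lines 2 on day 3 and 1 on day 5. The compared libraries alone gave 4 for KO day 5 against 4, 1 between KO and WT on day 0, 2 between MUT and WT70 on day 5, and 1 (day 3) and 0 (day 5) for the MUT against the KO effect. Leaving out 1 library gave 1 to 2 for KO day 3 against 1, 2 to 4 for the interaction, 0 to 1 between KO and WT on day 1, 0 to 1 on day 2, and 2 to 4 for WT day 3 against 1. The cell line as a replicate block, which pairs libraries of 1 line across days, changed no call (9 genes past the threshold for KO day 5 against 4 with and without the block).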
